A study of Mus musculus with 11 samples.

Results

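The genes described here are 10 genes of cholesterol efflux, cholesterol storage and lipid-loaded macrophages: *Apoe*, *Abca1*, *Abcg1*, *Nr1h3*, *Mylip*, *Soat1*, *Soat2*, *Ch25h*, *Trem2* and *Lpl*. They were taken by name from the 55487 genes of the deposited table, and all 10 were found once each. The names were chosen by function, with earlier results of these libraries known, among them the counts of *Apoe* in the sorted shFgf21 and shNC libraries, so the shFgf21 against shNC values below are a description of the chosen genes. No threshold was applied.

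Cholesterol that a cell cannot degrade is either exported or stored. The transporters ABCA1 and ABCG1 pass it to lipoprotein particles that can carry apolipoprotein E, while the enzymes SOAT1 and SOAT2 esterify it for storage in lipid droplets. The nuclear receptor LXR alpha, encoded by *Nr1h3*, is activated by oxysterols and switches on efflux genes as well as *Mylip*, which encodes a ubiquitin ligase. In macrophages that take up much lipid, the surface receptor TREM2 and lipoprotein lipase are commonly used as markers.

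Bulk RNA-seq was deposited for 11 mouse libraries in 4 groups. The sorted groups are labelled as T cells and immune cells from tumours, with 3 shNC libraries (genotype label WT) and 2 shFgf21 libraries; one of the latter carries the genotype label FGF21 Knockdown and the other FGF22 Knockdown. The tumour groups carry the tissue label Tumor, the line label MC38 (a mouse colon carcinoma line) and the cell type mesenchymal cell, and hold 3 shNC (WT) and 3 shFgf21 (FGF21 Knockdown) libraries. The knockdown is of the tumour cells' *Fgf21*, a secreted hormone of metabolism. Titles of the sorted libraries join several numbers, and the labels do not say whether a library pools animals. Separate animals are not named for the replicates either: the p-values below rest on variation among libraries that may be technical. Age, sex and strain of the hosts are not stated in the labels.

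Library totals ran from 14944013 to 19099350 counts. For a count of 0, 3 counts were taken as an approximate upper bound, which is not an absolute limit. They corresponded to 0.144 to 0.213 CPM (counts scaled to library size). *Fgf21* itself had 0 counts in the 5 sorted libraries and in the 3 shFgf21 tumour libraries, and 0, 2 and 1 counts in the shNC tumour libraries, so the knockdown could not be checked at this depth. In the sorted libraries the summed level of 12 macrophage markers was 11586, 13683 and 14196 CPM in shNC against 18181 and 19758 CPM in shFgf21. That of 15 T cell markers was 810.0, 722 and 417 CPM in shNC against 474 and 573 CPM in shFgf21. The libraries labelled T cell thus held far more macrophage than T cell marker RNA. They also held much mesenchymal marker RNA: 9 fibroblast or mesenchymal markers summed to 12171 to 13516 CPM in shNC and 12427 to 14449 CPM in shFgf21. That sum was 16326 to 18084 CPM in shNC tumour and 14473.5 to 16145 CPM in shFgf21 tumour libraries. Its part in the members' levels was not tested. In the tumour libraries the macrophage sum was 33.7 to 49.4 CPM, 9 of the 12 markers were under 1 CPM in each group, the T cell sum was 1.21 to 3.05 CPM, and *Cd3e* was at 0. In such bulk samples, fewer cells of a type and less RNA per cell cannot be told apart.

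Reference promoter sequence is shown for the 4 members with the highest level per transcript length in the shNC sorted libraries. Each is the 250 bases before a RefSeq start site, GRCm38.p6, printed 5′ to 3′ on the gene's own strand, with capitals marking matches to the motifs named after the sequences. The table matched 7 of the 10 members; *Abcg1*, *Soat2* and *Lpl* were not matched. The windows are *Apoe* at chr7:19699189-19699438 on the minus strand, *Abca1* at chr4:53159896-53160145 on the minus strand, *Trem2* at chr17:48346151-48346400 on the plus strand and *Ch25h* at chr19:34475149-34475398 on the minus strand.
Apoe: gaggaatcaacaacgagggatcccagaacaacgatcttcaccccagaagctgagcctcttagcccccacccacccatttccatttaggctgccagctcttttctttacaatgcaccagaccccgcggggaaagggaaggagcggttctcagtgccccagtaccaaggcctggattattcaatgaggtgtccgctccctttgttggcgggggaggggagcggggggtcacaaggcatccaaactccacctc
Abca1: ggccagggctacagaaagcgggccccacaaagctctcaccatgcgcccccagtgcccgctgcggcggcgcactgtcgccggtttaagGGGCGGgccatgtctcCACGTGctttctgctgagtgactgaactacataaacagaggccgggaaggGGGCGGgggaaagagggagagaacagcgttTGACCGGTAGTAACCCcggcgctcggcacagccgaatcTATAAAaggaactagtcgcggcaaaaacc
Trem2: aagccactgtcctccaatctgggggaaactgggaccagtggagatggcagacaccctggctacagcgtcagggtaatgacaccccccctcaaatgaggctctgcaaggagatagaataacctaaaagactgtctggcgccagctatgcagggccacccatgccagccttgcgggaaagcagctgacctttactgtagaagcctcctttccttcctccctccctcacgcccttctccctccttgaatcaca
Ch25h: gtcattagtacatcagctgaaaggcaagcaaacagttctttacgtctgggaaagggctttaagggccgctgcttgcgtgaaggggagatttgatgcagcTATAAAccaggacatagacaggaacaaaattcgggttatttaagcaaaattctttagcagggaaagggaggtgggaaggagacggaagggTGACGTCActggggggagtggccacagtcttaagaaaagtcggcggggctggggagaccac

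Both strands were searched for 6 motifs. The LXR direct repeat DR4 (AGGTCA, any 4 letters, AGGTCA), with up to 3 differing letters, had a match in *Abca1* on the reverse strand, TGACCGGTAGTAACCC, starting 67 bases before the start site, and 18.5% of 32851 promoter windows of this length held such a match. *Abca1* also held TATAAA (12.4% of windows), CACGTG (6.02%) and GGGCGG (32.7%). The *Ch25h* window held TATAAA and the cyclic AMP element TGACGTCA (1.55%). The *Apoe* window at the start of the deposited gene and the *Trem2* window held none of these letters, nor GAGGAAGT (2.44%), the core of the PU.1 site. Another *Apoe* window, before the RefSeq start site at 19698621, held TATAAA on both strands. A match describes letters and not a bound site.

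The genes lie at these mm10 positions, as deposited. On the minus strand are *Apoe* (chr7:19696109-19699188), *Abca1* (chr4:53030787-53159895), *Nr1h3* (chr2:91184061-91202834), *Soat1* (chr1:156424525-156474331) and *Ch25h* (chr19:34473778-34475164). On the plus strand are *Abcg1* (chr17:31057675-31117988), *Mylip* (chr13:45389742-45412022), *Soat2* (chr15:102150526-102163469), *Trem2* (chr17:48346401-48354147) and *Lpl* (chr8:68880491-68907448). Counts are over whole genes, so no value below refers to a single exon. Exons of *Ch25h* overlap the opposite-strand gene *Gm26902* and those of *Nr1h3* overlap *Gm13783* on its own strand, and whether counting used strand is not stated, so reads of overlapping genes could be shared.

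The level of every member in every library showed 2 sets of genes. *Apoe*, *Abca1*, *Abcg1*, *Nr1h3*, *Ch25h*, *Trem2* and *Lpl* were high in the sorted libraries and low in the tumour libraries, while *Mylip*, *Soat1* and *Soat2* were of similar size in both.

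**Figure D1:**
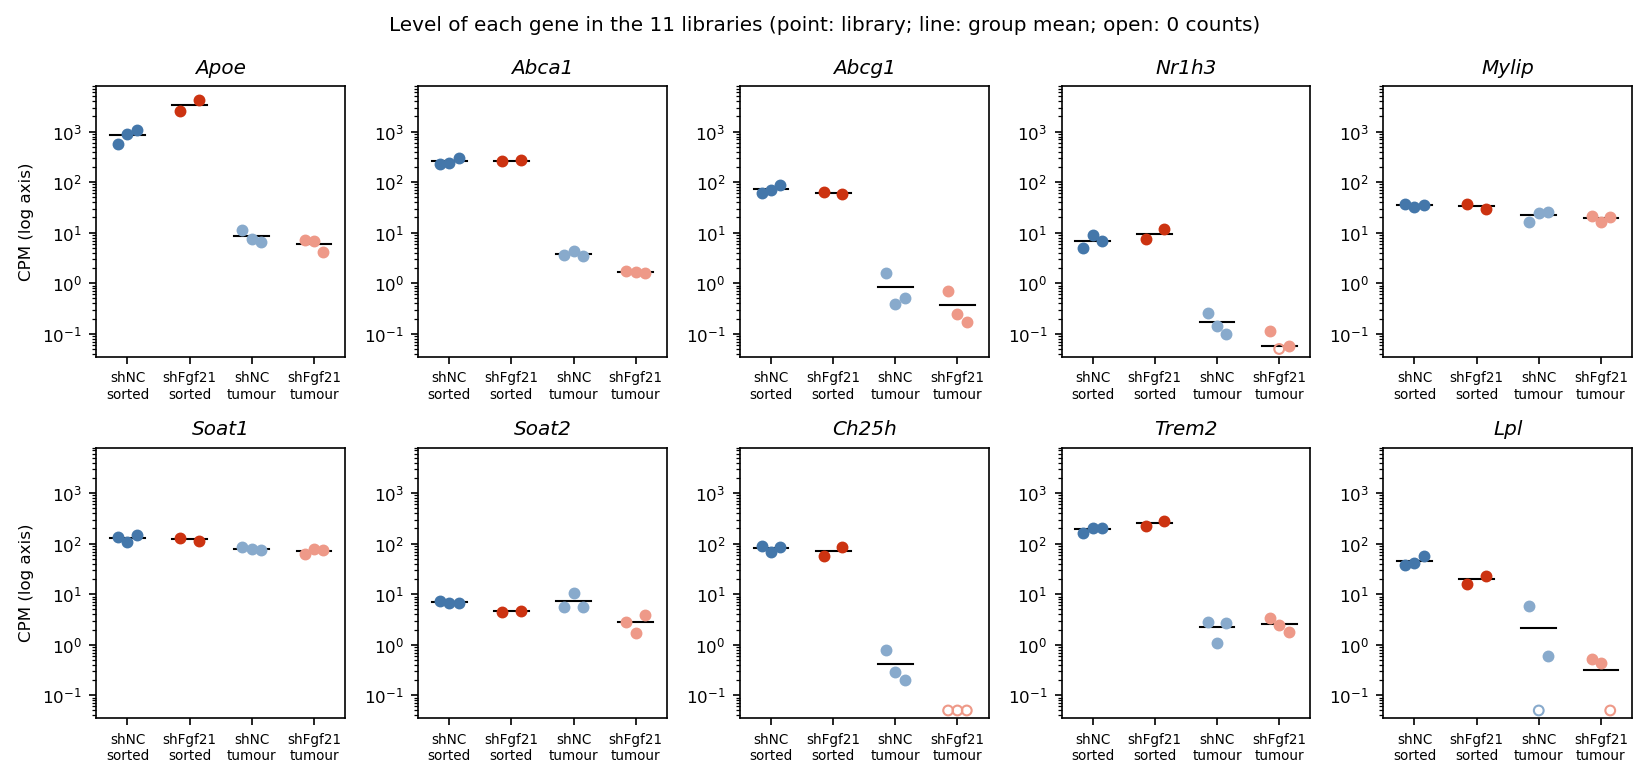
Level of each of the 10 genes in CPM on a log axis, 1 point per library and 1 line per group mean, with open points for libraries at 0 counts (drawn at 0.05 CPM). *Apoe* is at 2510.5 CPM or more in both shFgf21 sorted libraries and at most at 1091 CPM in the shNC ones.

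Per transcript length, using the deposited FPKM, *Apoe* was the most abundant member in the shNC sorted libraries at a mean of 126 FPKM, followed by *Ch25h* at 56.8, *Trem2* at 30.0, *Abca1* at 23.4, *Soat1* at 9.44, *Mylip* at 8.63, *Abcg1* at 8.45, *Lpl* at 3.78, *Soat2* at 2.51 and *Nr1h3* at 1.29 FPKM. The neighbouring pairs *Trem2* and *Abca1*, *Soat1* and *Mylip*, and *Mylip* and *Abcg1* overlapped between libraries. In the shFgf21 sorted libraries *Apoe* was at a mean of 469 FPKM. *Soat2* and *Lpl* had the lowest means there, 1.57 and 1.55 FPKM, and overlapped with *Nr1h3* at a mean of 1.70 FPKM. In the shNC tumour libraries the means were led by *Soat1* at 6.40 and *Mylip* at 6.15 FPKM, which overlapped between libraries. *Soat2* was at 2.94 and *Apoe* at 1.40 FPKM, and the other members were at 0.384 FPKM or less.

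Between the shNC groups, 9 of the 10 members were higher in the sorted libraries by edgeR's quasi-likelihood test with Benjamini-Hochberg adjustment over 16104 genes. Of all genes tested, 31% passed and 19.1% passed as higher. Groups did not overlap for 9 of 10 members, beside 47.2% of all genes. *Ch25h*, which makes 25-hydroxycholesterol, was higher by 7.66 ± 0.35 on the log2 scale (SE, adjusted p = 2.61e-06), *Apoe* by 6.64 ± 0.35 (adjusted p = 4.87e-06) and *Trem2* by 6.46 ± 0.34 (adjusted p = 4.91e-06). Of the transporters, *Abcg1* was higher by 6.53 ± 0.44 (adjusted p = 1.66e-05) and *Abca1* by 6.07 ± 0.18 (adjusted p = 5e-07). *Nr1h3* was higher by 5.36 ± 0.42 (adjusted p = 4.24e-05) and *Lpl* by 4.49 ± 0.99 (adjusted p = 0.0104), which became 7.25 without shNC tumour replicate 1. The macrophage marker sum differed in the same direction between these groups, and its part in the differences was not tested.

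The remaining members differed less between the shNC groups. *Soat1*, the widely expressed sterol acyltransferase, was higher in the sorted libraries by 0.70 ± 0.15 (log2, edgeR adjusted p = 0.00829). *Mylip* was higher by 0.64 ± 0.19 (edgeR adjusted p = 0.0329), and this call was lost without any 1 of the shNC sorted libraries 1, 2 or 3 (adjusted p of 0.107, 0.0706 and 0.0929) and without the filter on low counts (0.0546). *Soat2*, the acyltransferase best known from liver and intestine, had a log2 difference of -0.08 ± 0.29 (edgeR adjusted p = 0.86), and its groups overlapped. Marker lists of adipocytes and hepatocytes summed to under 1.04 CPM in every library.

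In the sorted libraries, *Apoe* had the largest fitted difference between shFgf21 and shNC among the 10 genes. It was at 570.2, 903 and 1091 CPM in the shNC libraries against 2510.5 and 4184 CPM in the shFgf21 libraries, so every shFgf21 library lay above every shNC library. The group means were 855 ± 264 CPM (SD, n = 3) and 3347 ± 1183 CPM (SD, n = 2). *Apoe* took 0.0553%, 0.0861% and 0.105% of all counts in shNC and 0.232% and 0.379% in shFgf21, where it ranked 26 and 8 among all genes. The fitted log2 fold change was 1.95 ± 0.29 (SE), a 3.86-fold difference, with an edgeR adjusted p of 0.0913 over 16454 genes, which did not pass 0.05. DESeq2 gave the same log2 value with an adjusted p of 0.00117, and edgeR passed it at 2.16 (adjusted p = 0.048) without shNC sorted replicate 3.

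*Lpl*, whose product releases fatty acids from lipoprotein triglyceride, was at 37.1, 41.6 and 58.3 CPM in the shNC sorted libraries against 16.0 and 23.3 CPM in the shFgf21 ones. Both shFgf21 libraries were below all shNC libraries. The log2 fold change was -1.23 ± 0.24 (edgeR adjusted p = 0.162), and DESeq2 gave an adjusted p of 0.000265. *Soat2* was at 7.49, 6.60 and 6.62 CPM in shNC against 4.47 and 4.64 CPM in shFgf21, again without overlap, with a log2 fold change of -0.62 ± 0.19 (edgeR adjusted p = 0.313). *Trem2*, the lipid-sensing receptor, was at 161, 203 and 208 CPM in shNC against 228 and 276 CPM in shFgf21. Its groups did not overlap, and its log2 fold change was 0.38 ± 0.14 (edgeR adjusted p = 0.383).

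Among the members, the efflux transporter genes *Abca1* and *Abcg1* and the regulator gene *Nr1h3* did not separate in the sorted libraries. *Abca1* was at 229, 238 and 304 CPM in shNC against 257 and 278 CPM in shFgf21, with a log2 fold change of 0.04 ± 0.14 (edgeR adjusted p = 0.95). *Abcg1* was at 60.8, 70.1 and 89.3 CPM against 64.3 and 58.0 CPM, with a log2 fold change of -0.28 ± 0.17 (edgeR adjusted p = 0.578). *Nr1h3* was at 5.06, 8.85 and 6.99 CPM against 7.59 and 11.7 CPM, with a log2 fold change of 0.45 ± 0.28 (edgeR adjusted p = 0.597). The groups of these genes overlapped, as did those of *Mylip* (29.5 to 37.3 CPM over the 5 libraries), *Soat1* (106 to 148 CPM) and *Ch25h* (58.3 to 90.6 CPM).

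By edgeR, 0 of the 10 members passed an adjusted p of 0.05 in the sorted libraries, where 0.079% of all tested genes passed. At an unadjusted p under 0.05 there were 4 of 10, beside 11.2% of all genes, and DESeq2 called 2 of 10, beside 1.66% of all genes by DESeq2. Groups did not overlap for 4 of 10 members, beside 29.8% of all genes. The median log2 fold change was -0.08 over the members and -0.01 over all genes tested.

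**Figure D2:**
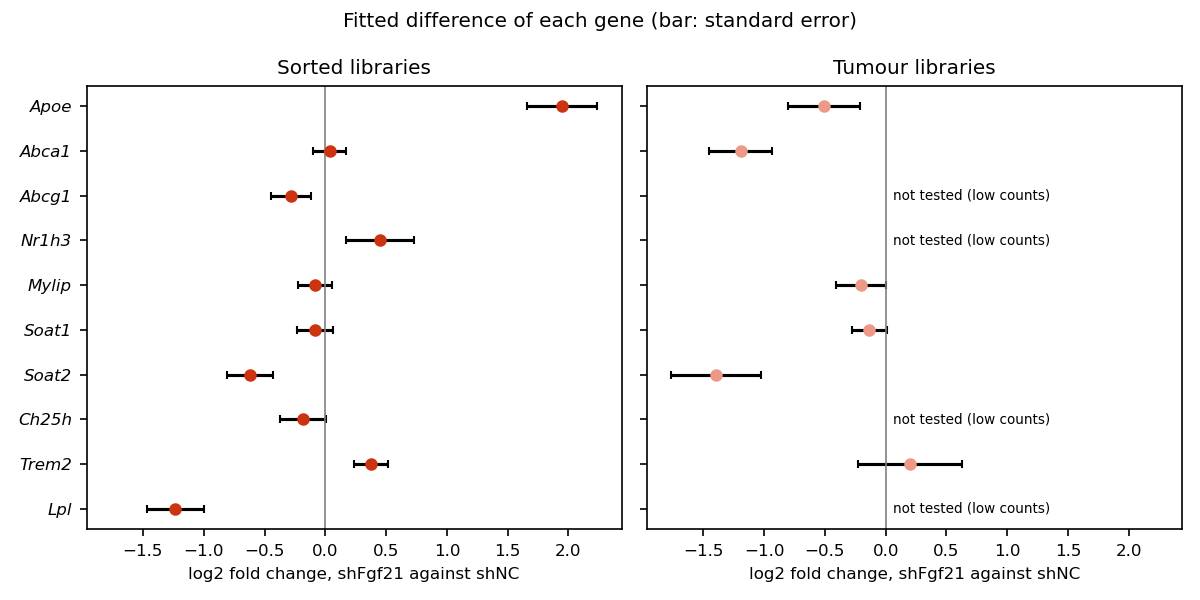
Fitted log2 fold change of shFgf21 against shNC for each of the 10 genes in the sorted (left) and tumour (right) libraries, with standard errors as bars. In the sorted libraries *Apoe* lies at 1.95 and *Lpl* at -1.23, and in the tumours 4 genes were not tested for low counts.

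Leaving out each sorted library in turn moved *Apoe* between 1.54 and 2.27 on the log2 scale, with edgeR adjusted p from 0.048 to 0.397. *Lpl* stayed between -1.52 and -0.99, *Soat2* between -0.65 and -0.56, and *Trem2* between 0.24 and 0.51. The sign of *Abca1*, *Soat1*, *Mylip* and *Ch25h* depended on which library was left out.

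**Figure D3:**
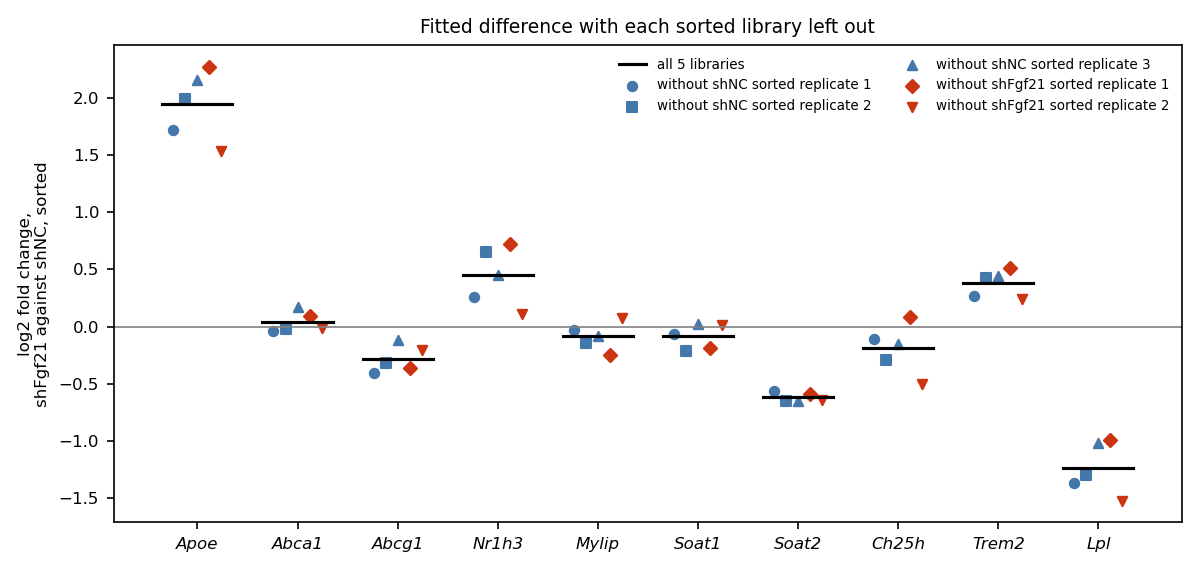
Fitted log2 fold change of shFgf21 against shNC in the sorted libraries for each gene, with all 5 libraries (black line) and with each library left out (points). The points of *Apoe*, 1.54 to 2.27, are all above 0 and those of *Lpl*, -1.52 to -0.99, all below.

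The macrophage marker sum was itself higher in the shFgf21 sorted libraries. All 12 markers had a fitted fold change above 0, with a median of 0.54 on the log2 scale, and 0 passed the edgeR test. Neutrophil markers summed to 76.8, 150.1 and 90.3 CPM in shNC against 61.0 and 69.7 CPM in shFgf21, with 1 of 5 tested markers above 0 and a median log2 fold change of -2.29. Epithelial markers summed to 30.3 to 43.4 CPM against 16.4 to 18.5 CPM, and endothelial markers to 28.4 to 46.0 CPM against 22.9 to 26.5 CPM. Of the 15 T cell markers 3 were above 0, with a median of -0.40. The part of these markers in the members' differences was not tested. Of the mean macrophage marker sum, *Lyz2* alone made 6518 of 13155 CPM in shNC and 9308 of 18969 CPM in shFgf21, so ratios to this sum weigh it most. The macrophage markers did not rise alike: mean *C1qa* was 1066 against 1986 CPM, and mean *Cd14* 826 against 852 CPM. Expressed as a percentage of the macrophage marker sum, *Apoe* was at 4.92%, 6.60% and 7.68% in shNC against 13.8% and 21.2% in shFgf21. The ratio of means was 2.73. *Lpl* was at 0.320%, 0.304% and 0.410% in shNC against 0.0881% and 0.118% in shFgf21, a ratio of 0.299. Per macrophage marker level, 7 of 10 members were lower without overlap, as were 71% of all genes, since dividing by a higher sum lowers every gene alike. *Apoe* was the 1 member higher without overlap, beside 0.699% of all genes, and *Nr1h3* and *Trem2* overlapped. Relative to the T cell marker sum *Apoe* was higher (4.14 times, with 7.04% of all genes higher without overlap), *Lpl* lower (0.460 times, with 2.09% of all genes lower) and 8 members overlapped.

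**Figure D4:**
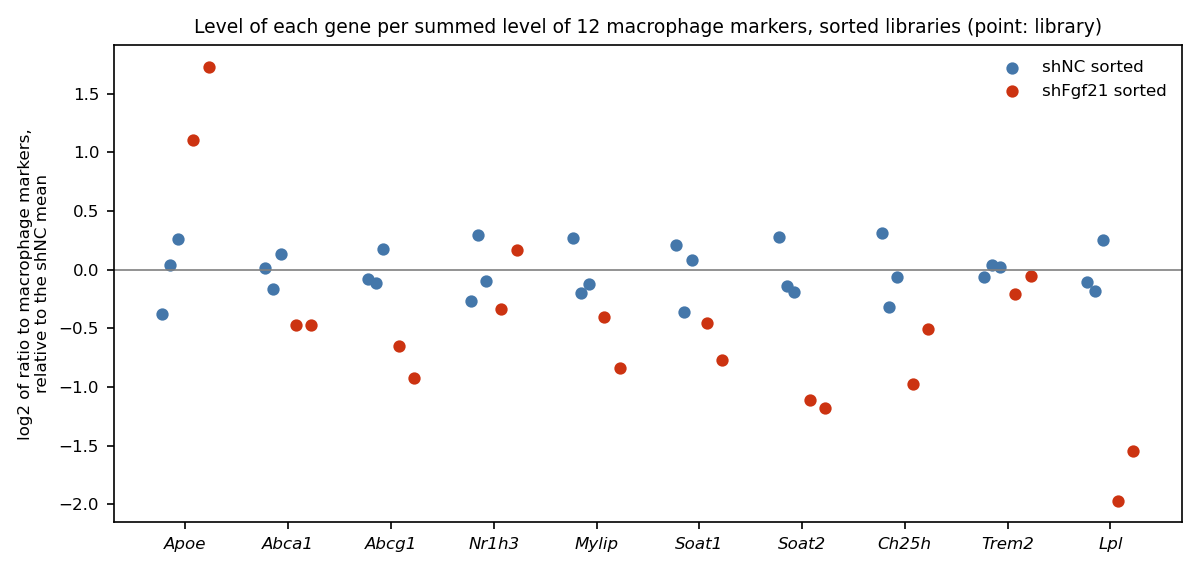
Level of each gene divided by the summed level of 12 macrophage markers in each sorted library, as log2 relative to the shNC mean (blue: shNC, red: shFgf21). The red points of *Apoe* are above all blue points, those of 7 genes are below, as for 71% of all genes, and those of *Nr1h3* and *Trem2* overlap the blue points.

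In the tumour libraries the efflux members were at low levels, and *Abca1* had at most 89 counts. *Abca1* was at 3.70, 4.28 and 3.47 CPM in shNC (57, 89 and 69 counts) against 1.73, 1.68 and 1.62 CPM in shFgf21 (30, 27 and 28 counts). All shFgf21 libraries were below all shNC libraries, and the log2 fold change was -1.19 ± 0.26 (edgeR adjusted p = 0.397 over 14950 genes). With all 4 groups in 1 fit, *Abca1* passed (edgeR adjusted p = 0.0245), as 1 of 26 genes. That fit uses 1 estimate of spread per gene for sorted and tumour libraries, whose spread may differ. *Apoe* was at 11.5, 7.65 and 6.64 CPM in shNC against 7.17, 6.84 and 4.22 CPM in shFgf21, which overlapped, with a log2 fold change of -0.51 ± 0.29 (edgeR adjusted p = 0.867).

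Of the storage genes, *Soat2* was at 5.65, 10.6 and 5.63 CPM in the shNC tumour libraries against 2.78, 1.74 and 3.81 CPM in the shFgf21 ones. The groups did not overlap, and replicate 2 of shNC was the highest. The log2 fold change was -1.39 ± 0.37 (edgeR adjusted p = 0.555), and DESeq2 gave an adjusted p of 0.0473. *Soat1* was at 87.2, 77.1 and 73.7 CPM against 62.5, 79.8 and 75.7 CPM, with a log2 fold change of -0.13 ± 0.15 (edgeR adjusted p = 0.935). *Mylip* was at 16.2 to 25.6 CPM and *Trem2* at 1.06 to 3.35 CPM over the 6 libraries, and the groups of both overlapped.

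*Abcg1*, *Nr1h3*, *Ch25h* and *Lpl* did not pass the filter on low counts in the tumours and were not tested there. *Ch25h* had 12, 6 and 4 counts in the shNC tumour libraries and 0 in the 3 shFgf21 libraries. The pooled shNC level of 0.393 CPM was 6.63-fold the level of 3 counts over the shFgf21 group (0.0592 CPM). Counting error of the 22 shNC counts does not enter this value, so it is not a lower bound. Without shNC tumour replicate 1, which held 12 of the 22 counts, the value was 4.16-fold. Without shFgf21 tumour replicate 1, 2 or 3 it was 4.37-fold, 4.53-fold and 4.37-fold. *Lpl* had 91, 0 and 12 counts in shNC and 9, 7 and 0 in shFgf21, with 5.91 CPM in shNC tumour replicate 1. That library also had the highest summed endothelial markers of the tumours, 16.1 CPM against 2.31 to 4.62 CPM in the others, and their part in the *Lpl* value was not tested.

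By edgeR, 0 of the 6 members tested in the tumours passed, where 0.0334% of all genes did. At an unadjusted p under 0.05 there were 2 of 6, beside 6.22% of all genes, and DESeq2 called 1, beside 0.77% of all genes by DESeq2. Groups did not overlap for *Abca1* and *Soat2*, 2 of 6, beside 11.8% of all genes.

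The difference of the shFgf21 effect between sorted and tumour libraries was tested over all 11 libraries. It passed by edgeR for 0 of the 10 members, beside 0.00577% of 17327 genes, with 3 of 10 at an unadjusted p under 0.05 (4.77% of all genes). The sorted minus the tumour log2 fold change was 2.46 ± 0.45 for *Apoe* (edgeR adjusted p = 0.286), most of it from the sorted libraries. For *Abca1* it was 1.24 ± 0.22 (edgeR adjusted p = 0.276), where the sorted value was near 0 and the tumour value was -1.19. DESeq2 called 3 of 10, beside 0.23% of all genes: *Apoe* and *Abca1*, with adjusted p of 0.000176 and 0.0216, and *Ch25h* at 0.0366. *Abcg1*, *Nr1h3*, *Ch25h* and *Lpl* failed the low-count filter in the tumours and entered this fit through their counts in sorted libraries. The *Ch25h* value, 5.57 ± 1.33 by edgeR, rests on 22 counts in shNC against 0 in shFgf21 tumour libraries. *Ch25h* is also among the 3 members at an unadjusted p under 0.05.

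The members were then set among 82 genes of 5 lists of the same pathways. In the sorted libraries 76 were tested, 45 had a fold change above 0 (48.2% of all genes did) and 31 below, and 0 passed by edgeR in either direction. At an unadjusted p under 0.05 there were 13 higher and 11 lower of 76, beside 11.2% of all genes in either direction. The list median was 0.06 on the log2 scale beside -0.01 for all genes. Of 21 efflux and LXR genes 17 were above 0, among them the LXR partner *Rxra* at 0.42 ± 0.10 (edgeR adjusted p = 0.235), the lysosomal cholesterol exporter *Npc1* at 0.29 ± 0.09 (adjusted p = 0.316) and the engulfment receptor *Mertk* at 0.41 ± 0.13 (adjusted p = 0.316).

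Of 14 esterification, hydrolysis and lipid droplet genes 10 were below 0. *Plin2*, which coats lipid droplets, was at 430.1, 438 and 564 CPM in shNC against 289 and 336 CPM in shFgf21, with a log2 fold change of -0.63 ± 0.14 (edgeR adjusted p = 0.226). *Hilpda*, an inhibitor of droplet lipolysis, had a log2 fold change of -0.59 ± 0.19 (adjusted p = 0.337) and the lipase gene *Lipe* 0.19 (adjusted p = 0.684). Of 13 lipoprotein uptake genes 7 were above 0. The scavenger receptor *Cd36* was at 98.7, 98.4 and 181 CPM in shNC against 31.1 and 50.1 CPM in shFgf21, with a log2 fold change of -1.65 ± 0.32 (edgeR adjusted p = 0.162).

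*Olr1*, another receptor for oxidised lipoprotein, had a log2 fold change of -1.30 ± 0.31 (edgeR adjusted p = 0.247). Of 11 oxysterol genes 6 were above 0, and the oxysterol receptor *Gpr183* was at -0.52 ± 0.17 (adjusted p = 0.341). The log2 fold change was 0.27 ± 0.10 for *Insig1* (edgeR adjusted p = 0.377), and 0.33 ± 0.15 and -0.54 for the sterol hydroxylase genes *Cyp27a1* and *Cyp46a1* (adjusted p of 0.473 and 0.623). Of 20 genes of TREM2 signalling and lipid-associated macrophages 12 were above 0. *Spp1*, which encodes osteopontin, was at 4227, 4705 and 4851 CPM in shNC against 2703 and 2618 CPM in shFgf21. Its log2 fold change was -0.81 ± 0.12 (edgeR adjusted p = 0.0823). *Apoe* and *Spp1*, both of this list, thus had fitted differences of opposite sign in the sorted libraries. *Spp1* was also abundant in the tumour libraries, where macrophage markers were low. There it was at 2160 to 2335 CPM in shNC and 1844 to 2114 CPM in shFgf21, without overlap.

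**Figure D5:**
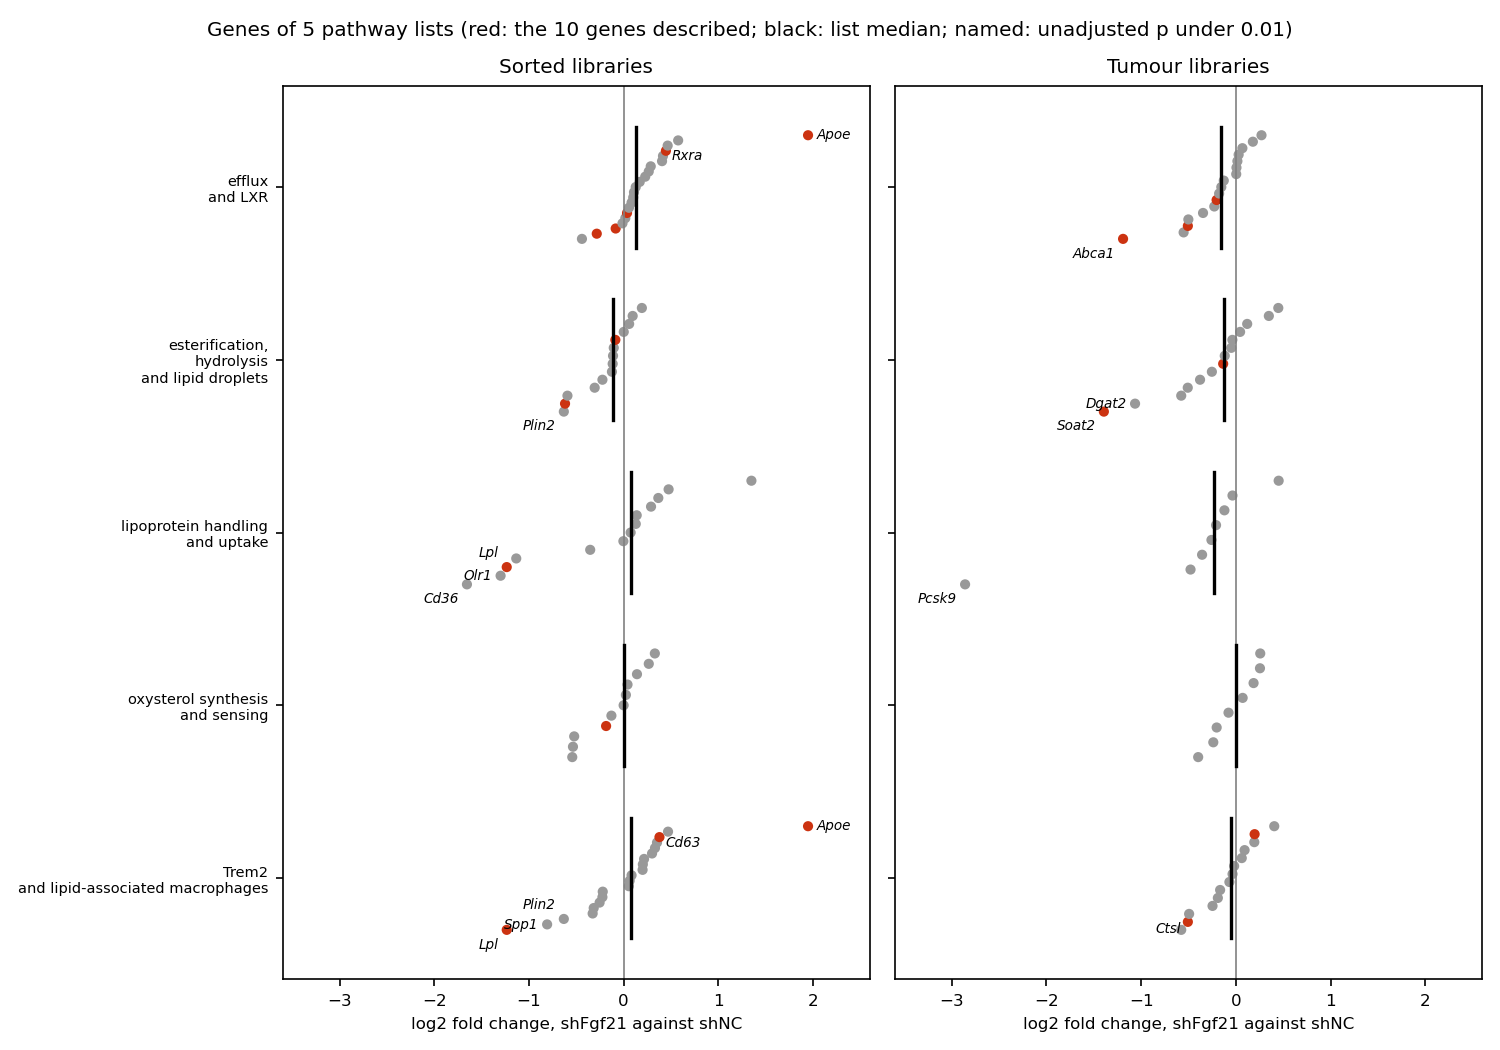
Fitted log2 fold change of shFgf21 against shNC for the tested genes of 5 pathway lists in sorted (left) and tumour (right) libraries, with the 10 genes in red, list medians as black lines and genes at an unadjusted p under 0.01 named. *Apoe* is the rightmost point at 1.95 in the sorted libraries, and *Cd36* the leftmost there at -1.65.

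In the tumours 59 of the 82 pathway genes were tested, 21 were above 0 (48.8% of all genes were) and 38 below, with a median of -0.12 beside -0.01 for all genes, and 0 passed by edgeR. At an unadjusted p under 0.05 there were 1 higher and 7 lower of 59, beside 6.22% of all genes in either direction.

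The genes whose log2 levels lay closest to a member's, after centring each gene, were ranked among 9447 genes at a mean of 10 CPM or more, by the root mean square difference. Over all 11 libraries the nearest to *Apoe* were *Trpm2* (0.51), *Adap2* (0.57) and *Tifab* (0.59), and to *Trem2* they were *Acp5* (0.31), *Slc28a2* (0.34) and *Inpp5d* (0.35). Those nearest to *Abca1* were *Cfp* (0.28), *Adam8* (0.32) and *Ppp1r3b* (0.34), and those nearest to *Ch25h* were *Tbc1d9* (0.41), *Basp1* (0.50) and *H2-Q7* (0.51). *Lpl* had no close neighbour by this measure, the nearest being *Pde8a* at 0.91. Over the 5 sorted libraries the nearest to *Apoe* were *Saa3* (0.25), *Serpinh1* (0.41) and *H2-Ab1* (0.46), and to *Lpl* they were *Col12a1* (0.20), *Spon1* (0.20) and *Mmp12* (0.21). These are descriptions. Sorted and tumour libraries differed widely in macrophage and T cell marker sums, and the part of cell makeup in these distances was not tested.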

How the data were processed

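The authors deposited 1 table of counts per gene and FPKM, fragments scaled to transcript length and library size, for the 11 libraries. The build is mm10 per the submitters' processing notes, and for the aligner, counter, annotation and strandedness the sources used here give nothing. Counts were tested as deposited with edgeR 4.0.16 (R 4.3.3, limma 3.58.1): TMM scaling, filterByExpr, the quasi-likelihood test and Benjamini-Hochberg adjustment over all genes tested, with a threshold of 0.05. Levels are CPM on TMM-scaled totals of 11 libraries, and genes are compared with each other on deposited FPKM. Standard errors are the size of the log2 fold change divided by the root of F. Tests were checked on simulated data, with changes set in genes at a mean of 10 CPM or more. Of genes changed 2-fold, 83.3% passed in the sorted and 62.9% in the tumour comparison. For the difference of the shFgf21 effect 20% passed, and for shNC sorted against tumour 76.6%. Of the genes that passed, 6.62%, 7.69%, 6.25% and 9.33% in these comparisons were not among the changed ones. These shares do not cover members with group means below 10 CPM. Those were *Apoe*, *Abca1*, *Soat2* and *Trem2* among the members tested in the tumours, and *Soat2* and *Nr1h3* in the sorted libraries. Of genes changed 4-fold, 100% passed in the simulated sorted comparison, whereas *Apoe* at a fitted 3.86-fold did not pass in the data.

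Groups follow the genotype labels and titles. Comparisons were shFgf21 against shNC in sorted and in tumour libraries, the difference between these, and shNC sorted against shNC tumour. The members and lists were chosen with earlier results of these data known. Named genes are the 10 members and, for each list, those that passed or else the 4 with the smallest p in the sorted libraries, of which 1 is not reported here. Alternatives were DESeq2 1.42.0, other scaling, no filter, all 4 groups in 1 fit, a replicate block and leaving out each library. Counting intervals cover counting error only.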

Additional observations from a re-analysis of the deposited data

How the results depend on the processing

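With all libraries, 13 genes passed in the sorted, 5 in the tumour and 1 in the interaction comparison. DESeq2 called 246, 115 and 36 genes, among them 2, 1 and 3 members. Without the filter on low counts the sorted count was 1 and the interaction count 4. With all 4 groups in 1 fit, 1 gene passed in the sorted libraries, and 26 in the tumours with 1 member. The tumour groups share replicate numbers 1 and 2, whose deviations correlated at 0.165 and -0.153. Pairs of unlike number ran from -0.251 to 0.165, so these values cannot settle whether a number pairs samples. With the replicate block 131 genes and 1 member passed, *Soat2* at -1.81 (edgeR adjusted p = 0.0348). Number 6 occurs only in shNC and number 3 only in shFgf21, so that fit compares only the pairs numbered 1 and 2. Leaving out 1 library gave 0 to 34 genes and 0 to 1 member in the sorted, 0 to 8 genes in the tumour, 0 to 4 in the interaction and 3468 to 5581 in the shNC comparison, where all libraries gave 4995. The sorted count was 34 without shNC replicate 3, 28 without shNC replicate 1, and 1 and 0 without shFgf21 replicates 1 and 2.

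Of 396 recomputed member fold changes 20 had the other sign, all with 1 library left out. In the sorted libraries the ranges were -0.043 to 0.17 for *Abca1*, -0.21 to 0.024 for *Soat1*, -0.50 to 0.081 for *Ch25h* and -0.25 to 0.072 for *Mylip*. In the tumours the range was -0.14 to 0.44 for *Trem2*. For the interaction they were -0.059 to 0.18 for *Soat1*, -0.038 to 0.31 for *Mylip*, -0.022 to 1.61 for *Abcg1*, -0.042 to 0.53 for *Trem2* and -1.30 to 2.07 for *Lpl*, and for shNC sorted against tumour -0.24 to 0.29 for *Soat2*. The cause was not tested. Of 80 recomputed levels 4 moved by over 1 SD. With 2 or 3 libraries a group, and under 100 counts for *Abca1* in each tumour library, depth and replicate number limit these values.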

Other observations

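Other lipoprotein genes, named after their values were seen, also separated the kinds of library. The macrophage scavenger receptor *Msr1* was at 369, 432 and 478 CPM in the shNC sorted libraries against 0.585, 0.337 and 0.453 CPM in the shNC tumours. *Apoc2*, which lies in the same gene cluster as *Apoe* and encodes the activator of lipoprotein lipase, was at 4.79, 10.5 and 9.68 CPM in shNC sorted, at 11.8 and 13.4 CPM in shFgf21 sorted, and had 0 counts in all 6 tumour libraries. *Apoc1*, also of that cluster, had at most 3 counts in any library. *Insig1*, a sterol-responsive gene, was at 135 to 150 CPM in shNC sorted against 133 to 226 CPM in shNC tumour libraries, and these groups overlapped.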
